A study of Mus musculus with 6 samples.

Results

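The 8 genes described here are the Notch receptors *Notch1*, *Notch2*, *Notch3* and *Notch4* and the Notch ligands *Jag1*, *Jag2*, *Dll1* and *Dll4*. They were taken by symbol from the 28777 genes of a count table of the embryonic mouse cardiac outflow tract (OFT), the segment of the embryonic heart from which the great arteries and semilunar valves form. All 8 were listed and all 8 passed the filter on low counts. RNA-Seq was performed on 6 libraries, 3 labelled as compound mutants, *Notch1*+/-;*Nos3*-/-, and 3 labelled wildtype, to ask which transcripts differ in a mouse model of OFT malformations. The embryos were at E13.5. The mutants carry a germline knockout of 1 *Notch1* allele and of both alleles of *Nos3*, the endothelial nitric oxide synthase, in every cell. The controls were wildtype littermates at both genes, and all animals were kept in a C57/BL6J background. A library held the RNA of 3 OFTs, cut below the conal cushions and pooled (18 in total), so the spread between libraries is that of pools and not of single embryos.

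Notch receptors are transmembrane proteins that are activated by ligands on neighbouring cells. Binding of a Jagged or Delta-like ligand leads to cleavage of the receptor by ADAM proteases and γ-secretase, and the freed intracellular domain enters the nucleus and acts with the DNA-binding protein RBPJ and Mastermind co-activators on target genes such as those of the Hes and Hey families. In the developing heart the pathway is known for its part in the transition of endocardial cells to cushion mesenchyme, in the arterial endothelium and in the smooth muscle of the great arteries. *NOTCH1* and *JAG1* mutations are known causes of human outflow tract and valve disease.

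Of the 8 genes, *Notch1* alone passed the test (0.0213% of all genes did), and it was higher, not lower, in the libraries labelled *Notch1*+/-. It passed in 13 of the 20 settings fitted, which are given below. In counts scaled to a common library size (CPM), its mean level was 82.0 ± 7.09 in libraries carrying the wildtype label (SD, n = 3) and 152 ± 10.9 in those carrying the mutant label (SD, n = 3), a 1.85-fold difference. *Jag2* was the other gene for which each library labelled mutant lay above each library labelled wildtype (1.52-fold), but it did not pass the test. Such an order was seen for 10.7% of all genes. *Notch2*, *Notch3* and *Jag1* had positive log2 fold changes with groups that overlapped, and *Notch4*, *Dll1* and *Dll4*, of which *Notch4* and *Dll4* are best known from endothelium, had log2 fold changes between -0.10 and 0.14. Because *Notch1* went against its label, the libraries are named by label throughout, and higher or lower always refers to these names.

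Library depth was between 34729103 and 44387490 counts. Scaling to CPM used edgeR's TMM factors. Log2 fold changes compare the mutant label with the wildtype label, and a gene was called where its adjusted p did not exceed 0.05 over the 28157 genes tested (quasi-likelihood test of edgeR, Benjamini-Hochberg adjustment). Markers of the tissue were listed for myocardium (12 of 12), vascular smooth muscle (8 of 8), cushion mesenchyme (10 of 10) and endothelium (12 of 12), with 0 of them at 0 in every library. The libraries were not alike in these tissues. All 12 myocardial markers and all 10 blood markers had log2 fold changes below 0 and all 10 mesenchymal markers had log2 fold changes above 0, with 0 markers called. The mean log2 CPM of a list differed between the labels by -0.57 for myocardium, -0.52 for blood and 0.68 for mesenchyme, by 0.19 for smooth muscle, 0.25 for neural crest and glia, 0.16 for neurons, -0.09 for epicardium, -0.03 for macrophages, -0.13 for endoderm and -1.66 for liver. The libraries labelled wildtype also differed among themselves, with mesenchymal markers highest in replicate 1 and myocardial markers highest in replicate 3. The liver mean was -0.20, 3.315 and 1.92 in wildtype replicates 1, 2 and 3 and between -0.35 and 0.41 under the mutant label. The blood mean of wildtype replicate 1 (6.86) lay within the range under the mutant label (6.81 to 6.90). Both lists thus overlapped between the labels. *Nos3*, the second targeted gene, had means of 42.4 ± 9.18 CPM (wildtype label; SD, n = 3) and 21.5 ± 0.949 CPM (mutant label; SD, n = 3), and its groups did not overlap. For *Nos3* the log2 fold change was -0.98, in the direction of its label, and below 0 in all 20 settings fitted. It was not called (edgeR, adjusted p = 0.128, between 9.14e-06 and 0.576 over the alternatives).

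Among the receptors, *Notch1* (ENSMUSG00000026923, chr2:26457903-26516663 of mm10, minus strand, 34 exons in its longest transcript) has known roles in the endocardium and arterial endothelium. It had 74.3, 88.2 and 83.6 CPM in wildtype replicates 1, 2 and 3 and 155, 160.5 and 139 CPM in mutant replicates 1, 2 and 3, from between 2714 and 6199 reads per library. The lowest library labelled mutant lay above the highest labelled wildtype, and the spread within each group was small (coefficients of variation of 8.64% and 7.20%). The log2 fold change was 0.89 (standard error 0.10, 95% interval 0.66 to 1.12, adjusted p = 0.0313 from edgeR's test), the fourth smallest p of all genes tested. Called genes made up 0.0213% of the genes tested, 6 of 28157, and 0.0178% were called as higher. The groups of 10.7% of all genes did not overlap with the mutant label higher, and 2 of the 8 Notch genes were among them. The call of *Notch1* rested on all but 1 of the libraries. It was kept without wildtype replicate 1 (log2 fold change 0.82, adjusted p = 0.00626 from edgeR's test), where 9.45% of all genes were called. It was lost when any of the other 5 was left out, where between 0.00364% and 0.0109% of all genes were called. The log2 fold changes of those 5 fits ran from 0.84 without mutant replicate 2 to 0.94 without mutant replicate 3. Their adjusted p was between 0.0917 and 0.339 (edgeR). The adjusted p over all alternatives was between 6.25e-11 and 0.339. The counts are per gene, so reads of the intact and of the targeted allele are added together, and which bases the knockout allele lacks is not given in the sources used here. How far the level of *Notch1* checks the labels therefore cannot be said from these counts, while *Nos3* was lower in each of the 3 libraries labelled mutant.

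*Notch2* (ENSMUSG00000027878, chr3:98013527-98150361, plus strand), a receptor of mesenchyme and smooth muscle precursors among other cells, had the widest spread of the receptors. Wildtype replicates 1, 2 and 3 had 105, 63.3 and 55.5 CPM and mutant replicates 1, 2 and 3 had 117, 128 and 84.1 CPM. Wildtype replicate 1 lay above mutant replicate 3, so the groups overlapped. The group means were 74.7 ± 26.9 CPM (wildtype label; SD, n = 3) and 109.5 ± 22.6 CPM (mutant label; SD, n = 3), for which the log2 fold change was 0.55 (standard error 0.22, 95% interval 0.05 to 1.05, adjusted p = 0.279 from edgeR's test). Without wildtype replicate 1 the log2 fold change was 0.88 and *Notch2* was called (9.45% of all genes were called in that fit).

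*Notch3* (ENSMUSG00000038146, chr17:32120820-32166852, minus strand) is the receptor best known from vascular smooth muscle and pericytes. It had 65.2, 53.3 and 36.7 CPM in wildtype replicates 1, 2 and 3 and 86.3, 91.9 and 62.9 CPM in mutant replicates 1, 2 and 3. Again wildtype replicate 1 was the highest of its group and mutant replicate 3 the lowest of its group, and these 2 libraries alone made the groups overlap. The log2 fold change was 0.63 (standard error 0.20, 95% interval 0.20 to 1.07, adjusted p = 0.212 from edgeR's test). *Notch3* was called without wildtype replicate 1, at a log2 fold change of 0.84.

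*Notch4* (ENSMUSG00000015468, chr17:34564268-34588503, plus strand), a receptor largely of endothelial cells, had the lowest level of the receptors, also per length. Wildtype replicates 1, 2 and 3 had 24.1, 30.9 and 31.1 CPM and mutant replicates 1, 2 and 3 had 30.7, 33.8 and 29.9 CPM. The groups overlapped, with wildtype replicate 1 below the other 5 libraries. The log2 fold change was 0.14 (standard error 0.12, 95% interval -0.13 to 0.40, adjusted p = 0.606 from edgeR's test), an interval that does not reach the log2 fold change of *Notch1*. With the counts corrected for GC content and length it was -0.10.

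**Figure D1:**
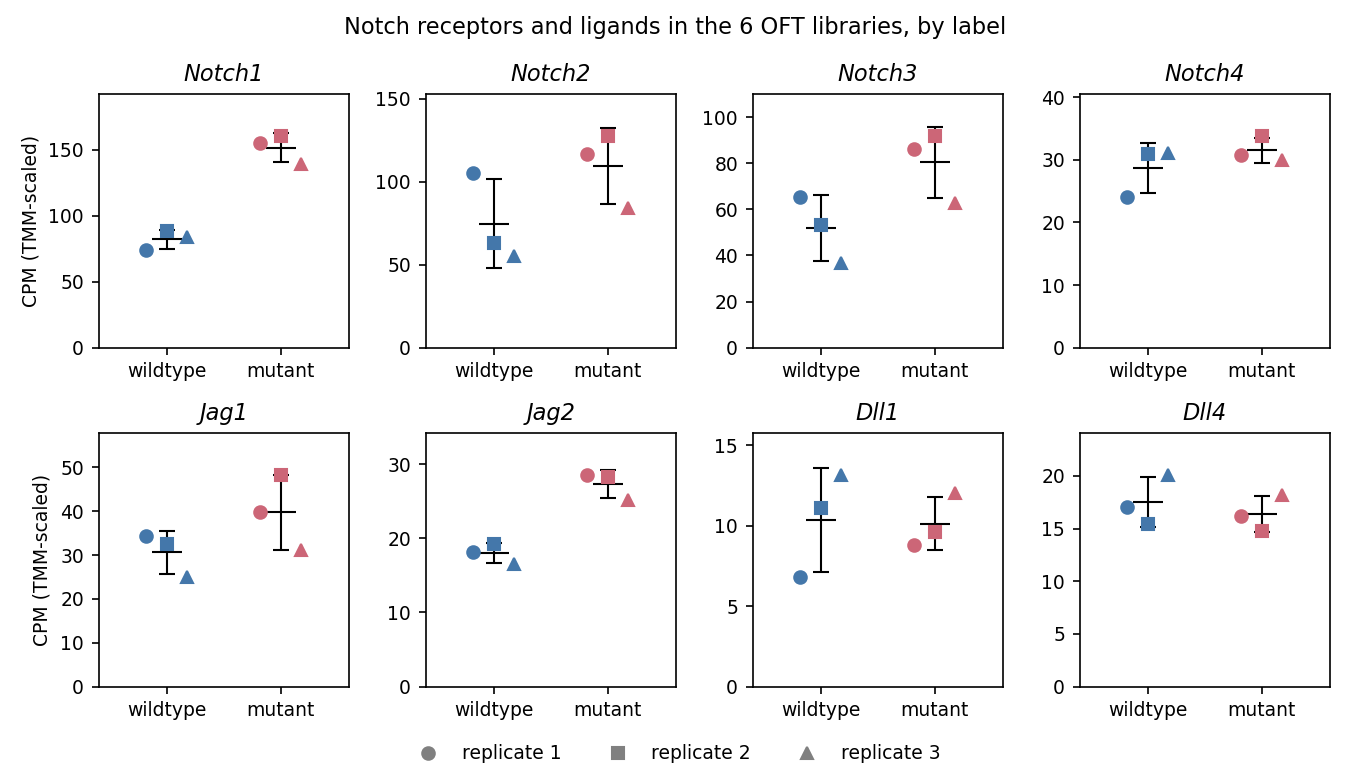
TMM-scaled CPM (linear axis from 0) of each receptor and ligand in the 3 libraries labelled wildtype (blue) and the 3 labelled mutant (red); marker shapes are replicate numbers, the dash is the group mean and the bar 1 SD. The 2 groups are apart for *Notch1* (82.0 and 152 CPM) and *Jag2* (18.0 and 27.3 CPM) and overlap for the other 6 genes, with wildtype replicate 1 above mutant replicate 3 for *Notch2* and *Notch3*.

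Among the ligands, *Jag2* (ENSMUSG00000002799, chr12:112907819-112929776, minus strand), a Jagged ligand, differed most between the labels. It had 18.1, 19.3 and 16.6 CPM in wildtype replicates 1, 2 and 3 and 28.5, 28.3 and 25.1 CPM in mutant replicates 1, 2 and 3, from between 538 and 1142 reads per library. All 3 libraries labelled mutant were above all 3 labelled wildtype, and the gap between the groups was larger than the spread within either. The log2 fold change was 0.60 (standard error 0.11, 95% interval 0.36 to 0.84, adjusted p = 0.128 from edgeR's test), and its p ranked 37 of 28157. An exact two-sided permutation test of log2 CPM gave p = 0.1 for *Jag2* and for *Notch1*, the smallest p that 3 libraries against 3 allow. *Jag2* was called without wildtype replicate 1, and over the 19 alternatives its log2 fold change stayed above 0, from 0.37 to 0.70.

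*Jag1* (ENSMUSG00000027276, chr2:137081456-137116644, minus strand), the ligand linked to Alagille syndrome and tetralogy of Fallot, was the most abundant ligand per length. Wildtype replicates 1, 2 and 3 had 34.3, 32.6 and 25.1 CPM and mutant replicates 1, 2 and 3 had 39.8, 48.3 and 31.1 CPM. Mutant replicate 3 lay below wildtype replicates 1 and 2, so the groups overlapped. The log2 fold change was 0.37 (standard error 0.17, 95% interval 0.01 to 0.74, adjusted p = 0.304 from edgeR's test).

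*Dll1* and *Dll4* are Delta-like ligands, and *Dll4* is known from arterial endothelium and endocardium. *Dll4* (ENSMUSG00000027314, chr2:119325784-119335962, plus strand) had 17.0, 15.4 and 20.1 CPM in wildtype replicates 1, 2 and 3 and 16.2, 14.8 and 18.2 CPM in mutant replicates 1, 2 and 3. *Dll1* (ENSMUSG00000014773, chr17:15367354-15376872, minus strand) had 6.79, 11.1 and 13.2 CPM in wildtype replicates 1, 2 and 3 and 8.80, 9.60 and 12.0 CPM in mutant replicates 1, 2 and 3. Both genes overlapped between the groups, and the libraries of 1 group differed from each other by more than the group means did. The log2 fold change was -0.10 for *Dll4* (standard error 0.13, 95% interval -0.39 to 0.20, adjusted p = 0.768 from edgeR's test). It was -0.03 for *Dll1* (standard error 0.22, 95% interval -0.52 to 0.46, adjusted p = 0.968 from edgeR's test). The interval of *Dll1* does not exclude a difference of the size seen for *Jag1*. The sign of *Dll1* and *Dll4* was not stable over the scalings and was above 0 with scaling by library size only (0.08 and 0.010).

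**Figure D2:**
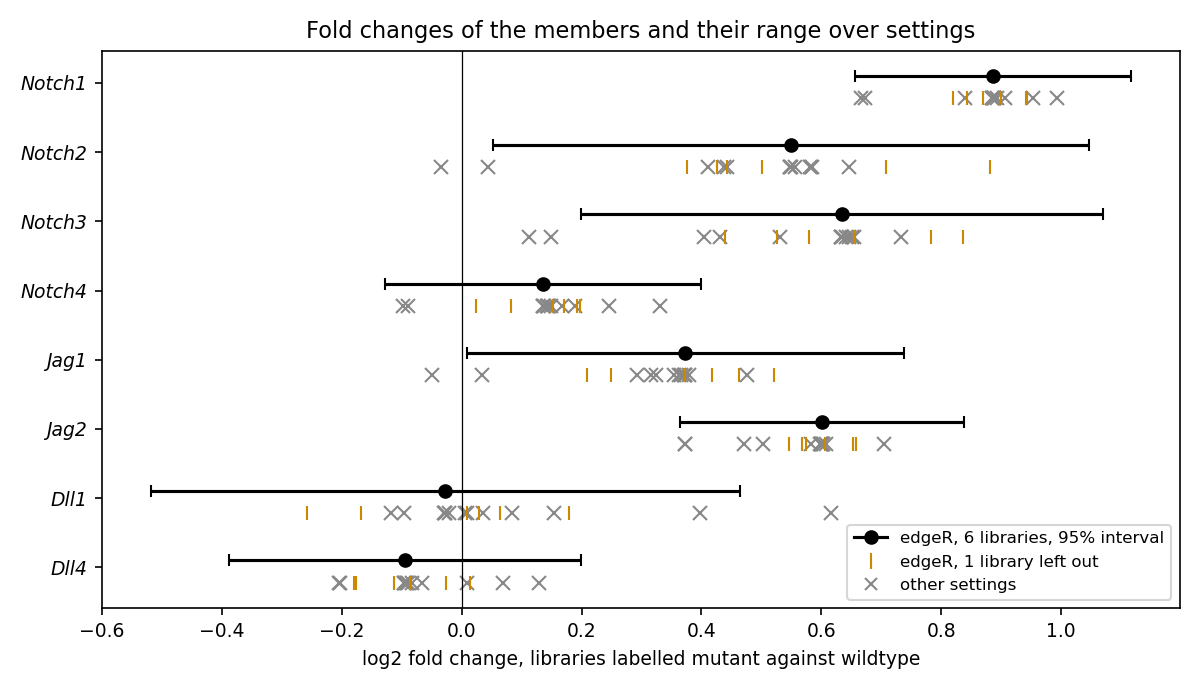
Log2 fold change of each gene in the libraries labelled mutant against wildtype, with the edgeR estimate from 6 libraries and its 95% interval (black), the estimates with 1 library left out (orange ticks) and those under the other settings (grey crosses). *Notch1* lies between 0.67 and 0.99 and *Jag2* between 0.37 and 0.70 in every setting drawn, whereas *Notch2* and *Notch3* reach from -0.04 and 0.11 to 0.88 and 0.84.

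The 8 genes had a median log2 fold change of 0.46, where the median of all 28157 genes was 0.011, and 6 of the 8 values were above 0, where 51.2% of all genes were. The median of the 8 was 0.16 with the myocardial mean and 0.22 with the mesenchymal mean as a covariate, 2 marker lists that moved with the labels. With scaling by library size only, which moved the median of all genes to 0.11, all 8 were above 0. DESeq2's Wald test called 3 of the 8, *Notch1*, *Notch3* and *Jag2*, where it called 2.66% of all genes, and limma-voom called *Notch1* (0.0178% of all genes). The genes are rich in GC and long. *Jag2*, *Notch4* and *Notch3* had a higher exonic GC content than 98.5%, 98.0% and 95.5% of the genes that averaged 1 CPM or more, and *Notch1* had longer exons than 97.3% of them. Across all genes, GC-rich genes were shifted between the libraries. The trend fitted for a gene of the GC content and length of *Notch1* was on average 0.21 higher in the libraries labelled mutant (log2 scale). By library it was -0.05, -0.13 and -0.14 in wildtype replicates 1, 2 and 3 and 0.17, 0.17 and -0.01 in mutant replicates 1, 2 and 3. After this trend was removed the log2 fold change was 0.67 for *Notch1* and 0.37 for *Jag2*, and 0 of the 8 were called (0.0142% of all genes; adjusted p = 0.0753 for *Notch1* from edgeR's test).

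Ratios within a library do not depend on how libraries are scaled to each other, so *Notch1* was set against each of the other genes. The log2 ratio of *Notch1* to *Notch4* counts was 1.63, 1.51 and 1.43 in wildtype replicates 1, 2 and 3 and 2.33, 2.25 and 2.22 in mutant replicates 1, 2 and 3. The 2 groups were apart, and their means differed by 0.74. The groups were apart also for the ratio of *Notch1* to *Dll4* (difference 0.98), to *Dll1* (0.88) and to *Jag2* (0.29). All 7 ratios share *Notch1*, whose own groups were apart, so they are not separate results and largely restate its difference where the other gene changed little. How many other genes would give such a ratio to *Notch1* was not counted. Each of these 4 ratios gave the smallest p possible (0.1 in an exact two-sided permutation test, 0.175 after Benjamini-Hochberg adjustment over 7 ratios), so none could pass. The ratio to *Jag1* differed by 0.52 (exact permutation p = 0.2), that to *Notch2* by 0.30 (exact permutation p = 0.7) and that to *Notch3* by 0.23 (exact permutation p = 0.5), with overlapping groups. The ratios to *Notch2* and *Notch3* hung on wildtype replicate 1, without which they differed by -0.05 and -0.03. With GC content and length corrected for, the groups of the same 4 ratios did not overlap (0.76 for *Notch4*).

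Levels of different genes were compared per length, as reads per kilobase of merged exons, scaled as CPM (RPKM). Under the wildtype label the order of the mean levels was *Notch2* (6.93 ± 2.49 RPKM; SD, n = 3), *Notch3* (6.39 ± 1.77), *Notch1* (5.76 ± 0.498), *Jag1* (5.26 ± 0.841), *Dll4* (4.54 ± 0.619), *Notch4* (3.56 ± 0.494), *Jag2* (2.58 ± 0.194) and *Dll1* (2.46 ± 0.771). In this order only *Dll4* and *Notch4*, and *Notch4* and *Jag2*, were neighbours whose ranges did not overlap. Under the mutant label *Notch1* came first, with 10.7 ± 0.767 RPKM (SD, n = 3), followed by *Notch2* (10.2 ± 2.1) and *Notch3* (9.93 ± 1.90), which overlapped with it. *Jag1* followed with 6.82 ± 1.48 RPKM and was apart from *Dll4* (4.25 ± 0.442). *Jag2* (3.92 ± 0.276) and *Notch4* (3.91 ± 0.254) came next, and *Dll1* (2.40 ± 0.397) was last and apart from *Notch4*. The length used matters for *Notch1*, whose merged exons (14232 bases) are longer than its longest transcript (9488 bases). With the longest transcript as length *Notch1* was first under both labels, at 8.65 and 16.0 RPKM.

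The summed level of the 4 receptors was 26.0, 22.5 and 19.4 RPKM in wildtype replicates 1, 2 and 3 and 36.2, 38.7 and 29.1 RPKM in mutant replicates 1, 2 and 3. The summed level of the 4 ligands was 14.5, 15.0 and 15.0 RPKM in wildtype replicates 1, 2 and 3 and 17.2, 18.5 and 16.5 RPKM in mutant replicates 1, 2 and 3. Both sums were apart between the labels, and the receptor sum had the larger difference in means (22.7 and 34.7 RPKM, against 14.8 and 17.4 RPKM for the ligands). The make-up of the ligand pool differed in *Jag2*, which held 17.4% ± 1.38 (SD, n = 3) of the ligand sum under the wildtype label and 22.5% ± 1.1 (SD, n = 3) under the mutant label, without overlap. The shares of the other 3 ligands and of the 4 receptors overlapped between the labels. No test was made of these sums and shares. They were not corrected for the trend with GC content and length. On the log2 scale this trend was higher under the mutant label by 0.23 for *Jag2*, 0.05 for *Jag1*, 0.10 for *Dll1* and 0.11 for *Dll4*. For the receptors it was higher by 0.14 (*Notch2*) to 0.23 (*Notch4*).

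**Figure D3:**
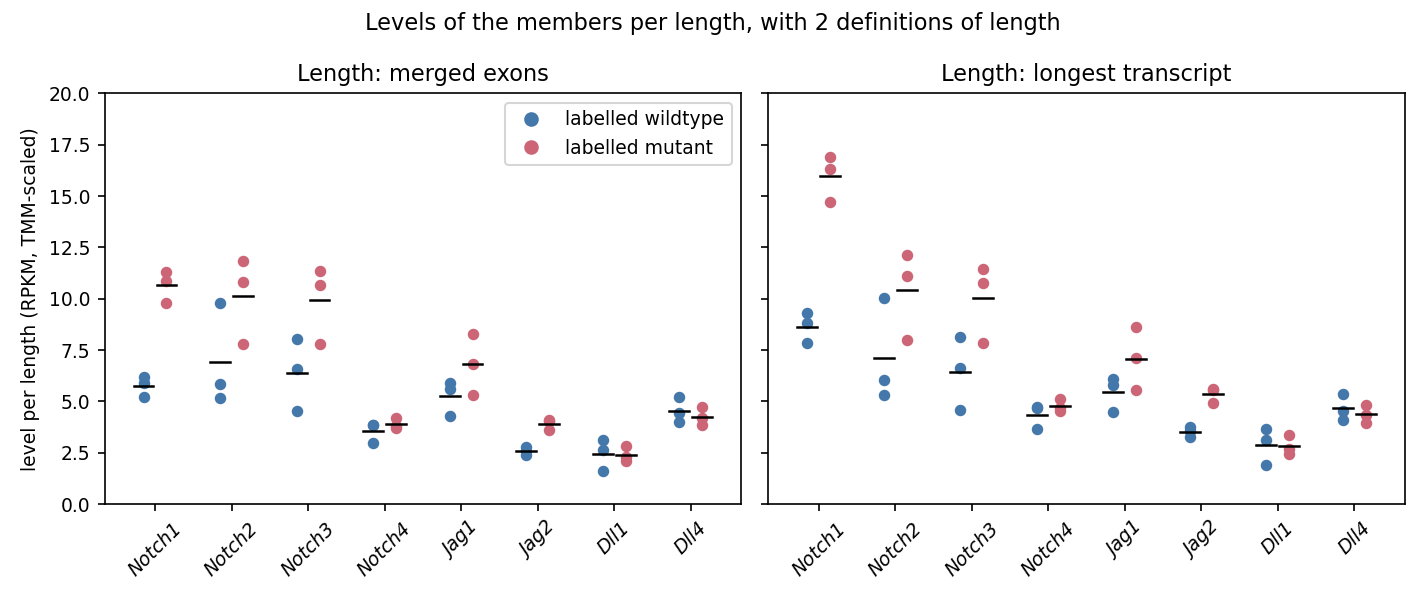
Level per length (RPKM, linear axis from 0) of each receptor and ligand in every library labelled wildtype (blue) and mutant (red), with the group mean as a dash, using the length of merged exons (left) or of the longest transcript (right). The order of *Notch1* against *Notch2* and *Notch3* under the wildtype label depends on the length used (5.76 or 8.65 RPKM for *Notch1*), while *Dll1* is lowest in both.

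The receptors and ligands are made by different cells of the OFT, and in bulk tissue fewer cells of a type and less RNA per cell cannot be told apart. The mean log2 CPM of the 10 mesenchymal markers was 8.41, 7.77 and 7.28 in wildtype replicates 1, 2 and 3 and 8.59, 8.62 and 8.30 in mutant replicates 1, 2 and 3. This order is close to that of *Notch2*, *Notch3* and *Jag1*, with wildtype replicate 1 among the libraries labelled mutant and wildtype replicate 3 the lowest. Mesenchyme was not alone in this. The smooth muscle mean was also lowest in wildtype replicate 3 (4.98). Its value for wildtype replicate 1 (5.10) lay inside the range under the mutant label (5.07 to 5.39). The same held for the neuronal mean (0.94 and 1.73, against 1.38 to 1.77). The 12 myocardial markers went the other way, from 10.42 to 11.11 under the wildtype label and from 9.75 to 10.56 under the mutant label. They were highest in wildtype replicate 3. Which tissue these genes follow was not tested, and no smooth muscle covariate was fitted. With the mesenchymal mean as a covariate, a setting chosen after the data were seen, the log2 fold change was -0.04 for *Notch2*, 0.11 for *Notch3* and 0.03 for *Jag1*. It was 0.95 for *Notch1* (adjusted p = 0.0281 from edgeR's test; 0.0426% of all genes were called) and 0.50 for *Jag2*. With the myocardial mean as a covariate it was 0.84 for *Notch1* (adjusted p = 0.104 from edgeR's test), 0.04 for *Notch2* and -0.05 for *Jag1* (0.0178% of all genes were called). These lists differ between the labels themselves, so label and tissue make-up can be told apart only in part by such a fit.

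The 12 endothelial markers, of the cells in which *Notch1*, *Notch4* and *Dll4* are best known, had a mean log2 CPM of 6.14, 6.58 and 6.69 in wildtype replicates 1, 2 and 3 and 6.35, 6.29 and 6.52 in mutant replicates 1, 2 and 3. They overlapped between the labels, with 3 of 12 log2 fold changes above 0 and a mean difference of -0.08. Set against this endothelial mean within each library, the log2 level of *Notch1* was 0.08, -0.11 and -0.30 in wildtype replicates 1, 2 and 3 and 0.93, 1.04 and 0.61 in mutant replicates 1, 2 and 3. *Notch1* and *Jag2* were apart between the labels on this scale, and the other 6 genes were not. The share of all genes apart on this scale was not counted. In CPM, 10.7% of all genes were apart with the mutant label higher. Relative to the endothelial markers, the mean difference was -0.006 for *Dll4* and 0.23 for *Notch4*. With the endothelial mean as a covariate 4 of the 8 genes were called (*Notch1*, *Notch2*, *Notch3* and *Jag2*), where 4.16% of all genes were.

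**Figure D4:**
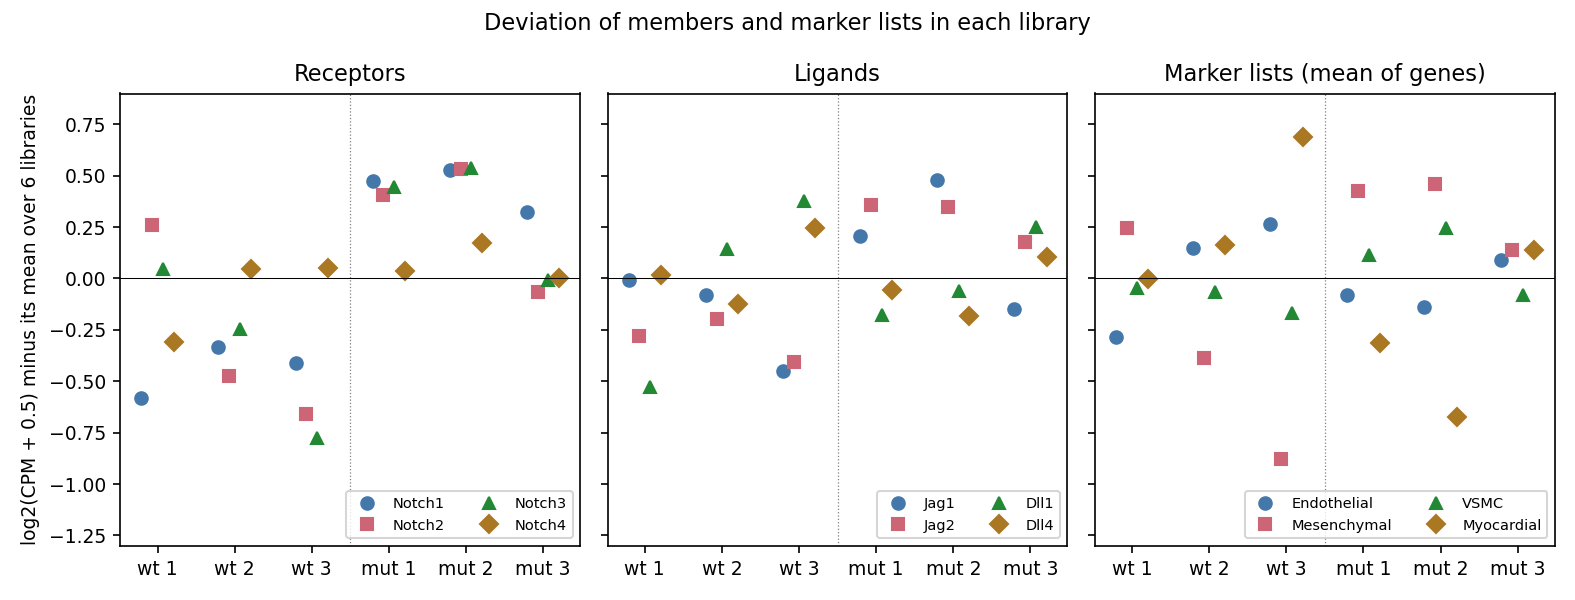
Deviation of each receptor (left), each ligand (middle) and the mean of each of 4 marker lists (right) from its own mean over the 6 libraries, on the scale of log2(CPM + 0.5); libraries labelled wildtype are left and those labelled mutant right of the dotted line. *Notch2* and *Notch3* are lowest in wildtype replicate 3, as is the mesenchymal list (0.25, -0.39 and -0.88 in wildtype replicates 1, 2 and 3), though not that list alone. *Notch1* is below 0 in all 3 libraries labelled wildtype and above 0 in all 3 labelled mutant.

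Across the 6 libraries, which share the difference in labels and in tissue make-up, the log2 levels of *Notch1* and *Jag2* had a Pearson correlation of 0.97, *Notch2* and *Notch3* of 0.95, and *Notch3* and *Jag1* of 0.94. *Dll4* and *Jag1* had a correlation of -0.86. These values describe 6 points and carry no test. Of 16647 other genes that averaged 1 CPM or more, those with the pattern most like *Notch1* were *5430431A17Rik*, *Nr4a1* and *Abca7* (r of 0.997, 0.996 and 0.992). For *Jag2* they were *Ppp1r18*, *Hjurp* and *Pisd-ps1* (0.998, 0.998 and 0.993). For *Notch2* they were *Sash1*, *Adamts1* and *Gpr161* (0.999 each), and for *Notch3* the extracellular matrix genes *Ltbp3* and *Col27a1* and the formin *Fmnl3* (0.999, 0.998 and 0.998). With *Notch2* and *Notch3*, 589 and 621 genes had an r of at least 0.95, with *Notch1* 130 and with *Notch4* 37. *Jag1* was most like *Anxa5*, *Adap1* and *Ssh3*, *Dll4* most like *Txnrd3*, *Gnpda1* and *Sqle*, and *Dll1* most like *Nts*, *Card10* and *Gm2862*.

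The rest of the pathway was read from the same fit as a list of 42 genes, all tested. None of the 42 was called by edgeR (0.0213% of all genes), 13 had an unadjusted p under 0.05 (11 higher and 2 lower, where 16.1% of all genes had such a p), and DESeq2's Wald test called 3 (*Numbl* and *Dtx3* higher, *Hey2* lower). Of all genes, DESeq2's Wald test called 2.66%. The 42 had a median log2 fold change of 0.08 (0.011 over all genes), and 31 were above 0, where 51.2% of all genes were. Each library labelled mutant lay above each labelled wildtype for 8 of the 42 (10.7% of all genes). The reverse order was seen for 1 of the 42 (8.94% of all genes). All 8 negative regulators and all 6 genes of the nuclear complex had log2 fold changes above 0, with medians of 0.11 and 0.17, and 6 of 8 and 5 of 6 did with GC content and length corrected for, where the count over the list was 25 of 42. With the mesenchymal mean as a covariate these counts were 5 of 8, 4 of 6 and 25 of 42, and with the myocardial mean 7 of 8, 4 of 6 and 25 of 42. The genes with the smallest p in their roles included the following. *Dtx3*, a Deltex family gene, had means of 52.8 ± 4.82 CPM (wildtype label; SD, n = 3) and 83.6 ± 12.7 CPM (mutant label; SD, n = 3), without overlap (log2 fold change 0.66, adjusted p = 0.131 from edgeR's test). The Fringe glycosyltransferase *Rfng* had a log2 fold change of 0.39, the E3 ligase *Mib2* 0.38 and the convertase *Furin*, which cuts the receptor precursor, 0.21. The atypical ligand *Dll3* had between 0 and 7 reads in each library, too few to compare.

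The targets of the pathway did not share a direction. *Hey2*, a Notch target known in endothelium and also in compact ventricular myocardium, had 85.5, 91.3 and 109 CPM in wildtype replicates 1, 2 and 3 and 72.8, 65.7 and 76.8 CPM in mutant replicates 1, 2 and 3. Each library labelled mutant was lower than each labelled wildtype, at a log2 fold change of -0.41 with standard error 0.11 (edgeR, adjusted p = 0.194), and the myocardial markers were lower under the same label. With the myocardial mean as a covariate the log2 fold change of *Hey2* was -0.19 (adjusted p = 0.892 from edgeR's test, against a range over the alternatives of 0.00811 to 0.892). Of the 7 targets, 4 had log2 fold changes above 0 and 3 below, and their median was 0.03. *Hes5*, among those below, had between 0 and 5 reads in each library, too few to compare. *Hes5* was also among the lower pathway genes with an unadjusted p under 0.05 in edgeR's test.

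The sequence before the start of each gene was taken from RefSeq (GRCm38.p6), 250 bases ending at the base before the annotated start, for all 8 genes. *Notch1* is shown as the gene that passed the test, *Notch3* as a receptor whose groups overlapped through 1 pair of libraries, and *Dll4* as a ligand with a log2 fold change near 0. Capitals mark the GC box GGGCGG on either strand, where matches that overlap are counted singly. The windows are chr2:26503823-26504072 (minus strand) for *Notch1*, chr17:32166891-32167140 (minus strand) for *Notch3* and chr2:119325534-119325783 (plus strand) for *Dll4*. RefSeq and GENCODE place some starts differently. The window of *Notch1* lies inside the GENCODE span of the gene, which starts further upstream, at chr2:26516663 on the minus strand. Of the 250 bases, GENCODE has exons of the same gene over 250 for *Jag2*, 124 for *Jag1*, 153 and 0 for the 2 windows of *Dll1*, 27 for *Notch4*, 11 for *Notch2*, 2 for *Notch1* and 0 for *Notch3* and *Dll4*.
Notch1: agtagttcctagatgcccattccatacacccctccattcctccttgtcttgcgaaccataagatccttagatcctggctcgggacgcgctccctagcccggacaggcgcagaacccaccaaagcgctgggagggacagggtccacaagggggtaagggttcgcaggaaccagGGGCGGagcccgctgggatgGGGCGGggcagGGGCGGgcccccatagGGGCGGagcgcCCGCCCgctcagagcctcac
Notch3: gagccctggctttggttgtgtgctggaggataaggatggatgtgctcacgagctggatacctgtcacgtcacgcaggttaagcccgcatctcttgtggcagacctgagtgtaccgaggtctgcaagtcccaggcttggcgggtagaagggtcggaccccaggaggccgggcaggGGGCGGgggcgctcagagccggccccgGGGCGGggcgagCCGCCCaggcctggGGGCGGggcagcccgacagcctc
Dll4: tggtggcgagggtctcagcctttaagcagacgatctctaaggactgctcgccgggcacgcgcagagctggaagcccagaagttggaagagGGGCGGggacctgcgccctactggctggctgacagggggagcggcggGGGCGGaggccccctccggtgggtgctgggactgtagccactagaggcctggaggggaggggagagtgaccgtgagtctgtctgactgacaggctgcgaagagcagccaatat

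The GC box was found 5 times in the window of *Notch1*, 4 times in that of *Notch3*, 2 times in that of *Dll4*, and 5 times each for *Notch2* and *Jag2*. It was not found for *Notch4*, *Jag1* and *Dll1*, and 32.7% of the 32851 windows of that length held it. GC made up 66.0% of the bases for *Notch1*, 68.8% for *Notch3*, 65.6% for *Dll4* and 87.2% for *Jag2*, whose window is exonic in GENCODE, where the median window had 52.4%. The letters TGGGAA, the core of the site that RBPJ binds, were searched on both strands and occurred in the windows of none of the 8 genes and in 21.6% of all windows. A match is a description of letters, and no match says only that these letters are not in this window.

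Some reads of the 8 genes could belong to annotated neighbours, since the counting is not stated to use the strand. Antisense genes cover 7.50% of the exonic bases of *Notch1* (*0610009E02Rik*), 6.03% of *Notch3* (*Gm17276*), 20.5% of *Dll1* (*A930024N18Rik*) and 5.56% of *Dll4* (*Gm14207*), and *Gm42820* covers 5.02% of *Notch2* on the same strand. These neighbours had at most 39 reads in any library, against at least 302 for the Notch genes. Such counts do not show how many reads fell on the shared bases, so the number of reads in question cannot be given.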

How the data were processed

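Bulk RNA-Seq of the E13.5 OFT was analysed from 6 libraries of 3 pooled OFTs, 3 per label. The libraries were stranded total RNA depleted of ribosomal RNA. The authors aligned paired-end reads to mm10 with TopHat2 2.1.0 and counted reads on exons, and the deposited values are whole-number counts for each gene that were not normalized. The annotation release, the strand setting and the treatment of overlapping genes are not given in the sources used here. Labels group the samples. The titles and descriptions of wildtype replicates 2 and 3 give opposite library numbers, and the titles were followed.

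The 28157 genes with more than 5 reads over all libraries were scaled by TMM factors and fitted with edgeR 4.0.16 (quasi-likelihood test, Benjamini-Hochberg adjustment over all genes) in R 4.3.3, with DESeq2 1.42.0 and limma 3.58.1 as alternatives. The 620 genes left out had 5 reads each. edgeR estimated 6.67 prior degrees of freedom and a biological coefficient of variation of 0.17. Single values were compared by an exact permutation test over the 6 libraries on log2(CPM + 0.5), and ratios on counts plus 0.5. GC content, lengths and positions came from GENCODE M21, which holds 28723 of the 28777 identifiers. The GC and length correction fitted splines with 5 degrees of freedom to each library. Counting error was between 1.27% and 5.75% of a member's count in a library, and 3 counts, the upper limit for a count of 0, correspond to 0.0676 to 0.0864 CPM; both cover counting error only. The p-values measure the spread between pools.

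The 8 genes, the pathway list and the marker lists were chosen with earlier results of these data known. The genes named beside the members are *Nos3*, the 3 genes most correlated with each member, the pathway gene of smallest p in each role and overlapping genes, of which some are not reported here; *Numbl* and the other pathway genes called by an alternative were named after their values were seen. Marker lists were Endothelial, Myocardial, Mesenchymal, VSMC (vascular smooth muscle), Blood, Liver, Endoderm, Macrophage, Neuronal, Epicardial, and Neural crest and glia. The alternatives were DESeq2, limma-voom, other scalings and filters, a replicate block, the GC and length correction, marker covariates and each library left out. The code was tested on simulated counts with known changes, including a simulated replicate effect and a simulated GC trend.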

Additional observations from a re-analysis of the deposited data

How the results depend on the processing

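Of 152 values of the members' log2 fold changes under alternatives, 111 kept their direction and their side of the threshold, 15 passed it, 7 no longer did and 19 changed sign. Of the 8 genes, 1 was called; 3 were called by DESeq2 (749 of all genes, against 6), 4 with a replicate block by titles (1577), 5 with the block and the GC and length correction together (2275), 4 with the Endothelial covariate (1170), 0 with the GC and length correction, 0 with the Myocardial covariate, and 0 at an adjusted p of at most 0.01 (2 of all genes). All genes called numbered 83 with a block by the descriptions' numbers and 12 with the Mesenchymal covariate, added after seeing the data. With 1 library left out, 0 to 4 members and 1 to 2593 genes were called, the highest counts being without wildtype replicate 1, and 0 to 3 other pathway genes. These pathway genes numbered 0 in the fit reported, 3 by DESeq2 (*Numbl*, *Dtx3* and *Hey2*), 5 with the block, 4 with block and correction and 3 with the Endothelial covariate. The cause of these changes was not tested. The numbers were not taken to pair the samples, since not every pair of same-numbered libraries had deviations correlated above 0.1 (0.096, 0.159 and 0.42). The value of 0.096 lies close to this cutoff, and such correlations cannot decide whether libraries were paired. Wildtype replicates 2 and 3 correlated best with the mutant replicate of their own number, and wildtype replicate 1 with mutant replicate 2 (0.277), a hint from the data and not from the design. The block by titles called *Notch1*, *Notch2*, *Notch3* and *Jag2* and left the log2 fold change of *Notch1* at 0.89.

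Sign changes were as follows. *Notch4* was -0.099 with the GC and length correction and -0.090 with the block added, *Notch2* -0.035 with the Mesenchymal covariate and *Jag1* -0.050 with the Myocardial covariate. *Dll1* was 0.036 by limma-voom, 0.085 with library size only, 0.0053 and 0.0087 with the blocks by titles and descriptions, 0.40, 0.15 and 0.62 with the Myocardial, Endothelial and Mesenchymal covariates, and -0.26 to 0.18 with 1 library left out. *Dll4* was 0.0097 with library size only, 0.13 and 0.069 with the Myocardial and Mesenchymal covariates and -0.18 to 0.014 with 1 library left out. The differences in the log2 ratios of *Notch1* to *Notch2* and *Notch3* ranged from -0.045 to 0.50 and from -0.025 to 0.47 with 1 library left out. With the longest transcript as length, the wildtype levels of *Notch1*, *Notch4* and *Jag2* were 8.65, 4.35 and 3.52 RPKM. The members had at least 302 reads in each library, and the counting error of these reads was at most 5.75%.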
